A study of Mus musculus with 18 samples.

Results

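The proteasome subunit genes were followed in mouse splenic CD4 T cells at rest and after stimulation, in wild-type mice and in mice with a Gli2 transgene. The set held every measured gene whose symbol is Psma, Psmb, Psmc, Psmd or Psme followed by a number, 42 of the 18193 genes on the array. The reference gene table has 43 such symbols. The one without a value of its own was Psme2, whose only probe set is annotated to Psme2 and Psme2b together. Each gene was read from its brightest probe set that is annotated to a single symbol. Of the 42 genes, 40 lay above the median level of all genes, and Psma8 and Psmb11 lay below it.

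The 26S proteasome degrades proteins that carry ubiquitin chains. Its 20S core is a barrel of alpha rings, which gate the entry, and beta rings, which hold the proteolytic sites, and its 19S cap binds ubiquitin, unfolds the substrate with a ring of ATPases and feeds it into the barrel. Lymphocytes and cells exposed to interferon also build an immunoproteasome, in which the beta subunits encoded by Psmb8, Psmb9 and Psmb10 take the places of those encoded by Psmb5, Psmb6 and Psmb7 and alter the peptides that are offered to MHC class I molecules.

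Expression was measured on Affymetrix arrays of total RNA from bead-purified CD4 cells of C57BL/6 mice, 9 to 15 weeks of age. They were WT or carried a Gli2A or a Gli2R transgene (Gli2A Tg and Gli2R Tg), named for activating and repressing forms of Gli2, a transcription factor of the Hedgehog pathway. The sources used here do not give the promoter that drives the transgenes. Cells were taken fresh (resting) or after 6 h with antibodies to CD3 and CD28 (stimulated), which gave 6 groups of 3 arrays, 18 in all. No cells kept for 6 h without antibody were analysed here, so the stimulation comparison includes any effect of culture. Levels are log2 of the intensity plus 16 after quantile normalization, and a difference on this scale understates the change of a dim gene. A gene was called where limma's adjusted p (Benjamini-Hochberg over all 18193 genes) was under 0.05.

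The labels were checked on single genes. Il2, the T cell growth factor made on activation, was higher by 6.87, 6.96 and 6.08 after stimulation in WT, Gli2A Tg and Gli2R Tg cells, and Ptch1, a textbook Gli target, was higher by 3.11 in resting and 2.12 in stimulated Gli2A Tg than in WT cells. In Gli2R Tg against WT cells Ptch1 was at 0.02 at rest and -0.06 after stimulation (adjusted p = 0.984 and 0.954, limma), so the Gli2R label was not borne out by this gene. The other cells of a spleen left a signal. Of 15 measured myeloid marker genes 14 were called lower in stimulated WT cells (median -4.40), and their mean log2 level per array was 10.62 to 11.89 in the resting and 6.39 to 8.05 in the stimulated arrays. B cell markers were lower in 2 of 8, erythroid markers in 4 of 6 and CD8 and NK cell markers in 4 of 7 (1 was higher), and of 8 markers of CD4 T cells 5 were lower. Of all genes 22% were called lower and 19.7% higher in stimulated WT cells, and the share of B cell markers called lower was near the former. Among the resting arrays, Gli2A Tg replicate 3 was separate on the second principal component, at 55.4 beside at most 11.4 in the others. The 3 resting Gli2R Tg arrays lay together at -34.6 to -24.6 on that component, below the resting WT arrays at -8.3 to 11.3. Among the stimulated arrays, Gli2A Tg replicate 2 was separate on the third, and its ratio of 3' to 5' actin signal was 3, beside at most 1.82 elsewhere.

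Stimulation was followed by a rise of most proteasome subunit genes in WT cells, with the 3 immunoproteasome genes, read from their brightest probe sets, among the few that fell. Of the 42 genes 23 were called higher and 8 lower, and 11 were not called. Of all genes 41.7% were called, 19.7% higher and 22% lower. The median difference of the proteasome genes was 0.45, where that of all genes was 0. The proteasome genes are bright, and bright genes were called more often. With only the genes above the median level in the fit, 25 of 40 proteasome genes were called higher and 7 lower, beside 35% higher and 36.4% lower of all such genes. In Gli2A Tg cells 24 of 42 were higher and 8 lower (all genes 42.9%, 20.2% higher, 22.8% lower), with a median of 0.49. In Gli2R Tg cells 25 were higher and 7 lower (all genes 42.3%, 19.8% higher, 22.5% lower), with a median of 0.46. For the mean effect over the 3 genotypes, 26 were higher and 9 lower (all genes 57.2%, 27.7% higher, 29.5% lower).

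The calls were largely shared between the genotypes, which were each compared with their own resting cells. Of the 42 genes 21 (50%) were called higher in all 3 genotypes, where 13.9% of all genes were, and 6 (14.3%) were called lower in all 3, where 16.4% of all genes were. These shares include the dim genes, which were called less often, and the shares among genes above the median level are not given here. The 6 were Psmb1, Psmb7, Psmb8, Psmb9, Psmb10 and Psmd10. No gene was called higher in one genotype and lower in another, and 7 were called in none. Some calls were lost or turned in direction in at least 1 of 17 other settings or array sets. Those were of Psma6, Psmb1, Psmb3, Psmb8, Psmd2, Psmd6, Psmd11 and Psmd13 in WT cells. In Gli2A Tg cells they were of Psma1, Psma4, Psmb1, Psmb4, Psmb8, Psmd2, Psmd6, Psmd11, Psmd13 and Psme1, and in Gli2R Tg cells of Psma1, Psma4, Psma6, Psmb3, Psmb4, Psmd2, Psmd11 and Psme4. Without both arrays that stood apart, 24 genes were higher and 8 lower in WT, 25 and 7 in Gli2A Tg cells and 26 and 7 in those with Gli2R Tg. The share of all genes in that fit is not given here. In these bulk samples fewer cells of a type and less RNA per cell cannot be told apart. With the myeloid marker mean as a covariate in the fit, no proteasome gene was called in any genotype, and of all genes only 0.22%, 0.44% and 0.253% were called in WT, Gli2A Tg and Gli2R Tg cells. Every resting array has a higher myeloid mean than every stimulated array, so stimulation and the loss of myeloid signal cannot be told apart in this design.

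**Figure D1:**
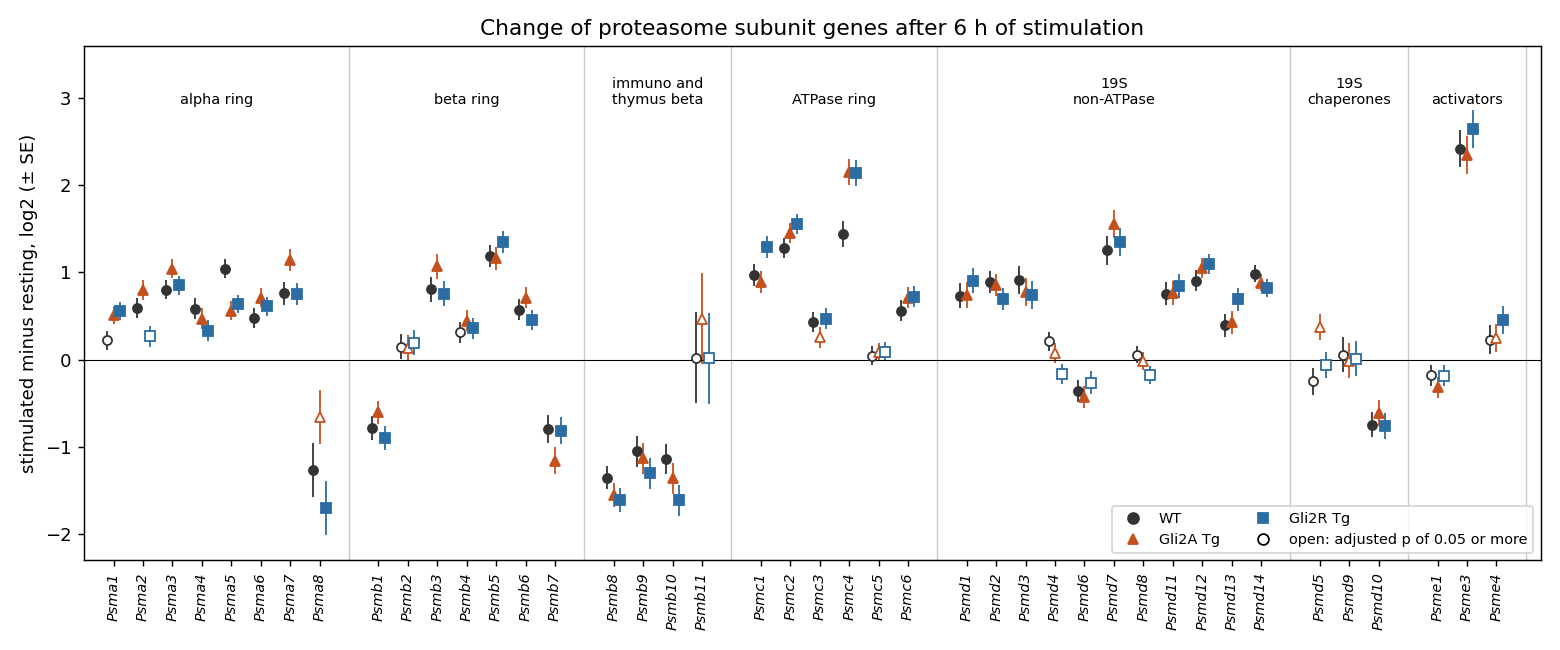
Difference of log2 means, stimulated minus resting, with its standard error (SE), for the 42 proteasome subunit genes ordered by role, in WT (circles), Gli2A Tg (triangles) and Gli2R Tg cells (squares), with 3 arrays per group. Filled symbols passed the adjusted p of 0.05. Most core and cap genes lie above 0, Psmb8, Psmb9 and Psmb10 lie between -1.62 and -1.06, and Psme3 lies above 2.3 in each genotype.

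Most alpha ring genes rose. In WT cells 6 of 8 were called higher, Psma8 was called lower and Psma1 was not called, with a median of 0.59. Of all genes 19.7% were called higher there and 22% lower. Psma5 rose by 1.04 ± 0.11 (SE; 2.06-fold, adjusted p = 1.51e-06, limma), and Psma3 (0.80), Psma7 (0.76), Psma2 (0.59), Psma4 (0.58) and Psma6 (0.48) rose by less. Psma1 was at 0.22 ± 0.11 (adjusted p = 0.114, limma) in WT cells and was called higher in Gli2A Tg (0.51) and Gli2R Tg cells (0.56). With the mean of all its probe sets Psma1 was at 0.21 and 0.30 there and was not called (adjusted p = 0.235 and 0.0837, limma). The call of Psma6 in WT cells was lost when all its probe sets were averaged (adjusted p = 0.0548, limma). The call of Psma4 in Gli2R Tg cells (0.33 ± 0.12, adjusted p = 0.0399) was lost without any 1 of the 6 Gli2R Tg arrays (adjusted p 0.052 to 0.126).

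The exception among the alpha genes was Psma8, a testis-enriched relative of Psma7 whose probe set is dim. Its log2 levels were 6.55, 6.09 and 6.10 in resting and 5.22, 4.25 and 5.48 in stimulated WT cells. They were 6.17, 6.34 and 6.70 in resting and 5.75, 5.96 and 5.51 in stimulated Gli2A Tg cells. In Gli2R Tg cells they were 5.99, 6.23 and 6.44 at rest and 4.2, 5.16 and 4.2 after stimulation. The stimulated arrays were the lower ones in each genotype without overlap. All values lay under the median gene level of 7.06, many near the 25th percentile of 5.37. The difference was -1.26 ± 0.31 in WT (adjusted p = 0.00383, limma), -0.66 in Gli2A Tg (not called) and -1.71 in Gli2R Tg cells.

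The constitutive beta genes moved in both directions. Of 7 genes 3 rose and 2 fell in WT cells, where 19.7% of all genes were called higher and 22% lower. These counts were near the shares among genes above the median level given before. Psmb3, among the 3 that rose, rested on its probe set, as given below. Psmb5, which encodes the chymotrypsin-like subunit, rose by 1.19 ± 0.13 (2.28-fold, adjusted p = 2.49e-06, limma), and Psmb6, the caspase-like subunit, by 0.57 ± 0.12. Psmb7, the trypsin-like subunit, fell by 0.80 ± 0.16 (adjusted p = 0.000661, limma), and Psmb1, a structural beta subunit, fell by 0.79 ± 0.14. The call of Psmb1 was lost with median centring (adjusted p = 0.0606, limma). Psmb2 (0.15) and Psmb4 (0.31, adjusted p = 0.0515, limma), further structural subunits, were not called in WT cells, while Psmb4 was called higher in Gli2A Tg (0.45) and Gli2R Tg cells (0.36). The call in Gli2A Tg cells was lost with only the arrays of the compared groups (adjusted p = 0.0741, limma), and so was that in Gli2R Tg cells (0.0897). The latter was also lost with median centring, with the deposited scaling, and without resting Gli2R Tg replicate 1 or 2 or stimulated Gli2R Tg replicate 3 (adjusted p 0.0793 to 0.109 without an array). The mean of the Psmb4 probe sets was called higher in Gli2A Tg (0.62, adjusted p = 0.000242, limma) and Gli2R Tg cells (0.56, adjusted p = 0.000567). In WT cells it was not called (0.10, adjusted p = 0.535), and the other probe set did not have the sign of the brightest.

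For Psmb3 the result rested on the probe set. Its brightest probe set rose by 0.81 in WT cells and its other one, of nearly the same brightness (mean log2 level 12.81 against 12.85), fell by 0.78, both called. The mean of both was 0.01 (adjusted p = 0.959, limma).

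All 3 immunoproteasome genes fell in each genotype as read from their brightest probe sets, and for Psmb8 this rested on the choice of probe set. Psmb8, the immunoproteasome counterpart of Psmb5, fell by 1.36 ± 0.14 in WT (2.56-fold, adjusted p = 1.1e-06, limma), by 1.55 in Gli2A Tg cells and by 1.61 in those with Gli2R Tg. Its other, dimmer probe set had the opposite sign in the same cells, at 0.63 ± 0.25 in WT (adjusted p = 0.0533, limma), 1.29 in Gli2A Tg (adjusted p = 0.000527) and 0.71 in Gli2R Tg cells (adjusted p = 0.0299). The mean of both was -0.36 ± 0.17 in WT and -0.13 in Gli2A Tg cells, neither of them called (adjusted p = 0.0998 and 0.578, limma), and -0.45 in Gli2R Tg cells (adjusted p = 0.0422). Psmb9, the counterpart of Psmb6, fell by 1.06 ± 0.18 (2.08-fold), 1.13 and 1.31 in the same order. Psmb10, the counterpart of Psmb7, fell by 1.14 ± 0.18 (2.21-fold), 1.36 and 1.62. Psmb11, the thymus-specific counterpart of Psmb5, gave 0.02 ± 0.52 in WT cells from a probe set below the median gene level and was called in no genotype.

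The counterparts that rose and fell are printed here as the sequence before their start sites. Shown are the 250 bases that end at the annotated start of Psmb5 and Psmb6, which rose, and of Psmb8 and Psmb9, whose brightest probe sets fell (RefSeq, GRCm38.p6, 5' to 3' on the gene's strand). Capitals mark an antioxidant response core (TGACNNNGC) in Psmb5 and Psmb6 and a CCAAT box on the opposite strand in Psmb9.
Psmb5, chr14:54617996-54618245, - strand: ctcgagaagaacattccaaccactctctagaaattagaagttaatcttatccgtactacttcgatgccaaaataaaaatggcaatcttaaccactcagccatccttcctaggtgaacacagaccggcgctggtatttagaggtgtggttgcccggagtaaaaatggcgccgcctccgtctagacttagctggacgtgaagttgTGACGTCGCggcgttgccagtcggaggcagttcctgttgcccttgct
Psmb6, chr11:70525107-70525356, + strand: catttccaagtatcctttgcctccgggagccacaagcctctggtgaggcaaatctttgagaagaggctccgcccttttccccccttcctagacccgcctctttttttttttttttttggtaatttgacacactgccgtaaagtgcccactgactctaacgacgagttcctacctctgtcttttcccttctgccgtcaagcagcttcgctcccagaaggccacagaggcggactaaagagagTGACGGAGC
Psmb8, chr17:34197945-34198194, + strand: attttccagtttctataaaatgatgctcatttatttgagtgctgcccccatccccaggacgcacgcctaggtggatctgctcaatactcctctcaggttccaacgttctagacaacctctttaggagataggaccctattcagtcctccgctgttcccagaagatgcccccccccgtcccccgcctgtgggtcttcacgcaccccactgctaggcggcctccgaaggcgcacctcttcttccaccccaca
Psmb9, chr17:34187331-34187580, - strand: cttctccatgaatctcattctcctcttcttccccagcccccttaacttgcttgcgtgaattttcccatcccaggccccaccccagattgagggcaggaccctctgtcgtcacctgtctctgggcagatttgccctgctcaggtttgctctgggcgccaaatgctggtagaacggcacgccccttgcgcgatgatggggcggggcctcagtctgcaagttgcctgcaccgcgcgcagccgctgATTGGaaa

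The antioxidant response core, the element that factors of the Nrf family read, began 47 bases before the start of Psmb5 and 9 bases before that of Psmb6. In windows of 300 bases (250 before the start and 50 after it), searched on both strands, it was found in 16.2% of 37 windows of 35 matched proteasome genes and in 12.4% of all 32851 promoter windows. Besides Psmb5 and Psmb6 it stood in the windows of Psmc6, Psmd12, Psmd9 and Psme4. An interferon response core (GAAANNGAA) was found in 16.2% of the proteasome windows and 8.56% of all, CCAAT in 37.8% and 37.4%, and the Sp box GGGCGG in 56.8% and 35.7%. The windows of Psmb8 and Psmb9 held neither the antioxidant nor the interferon core, which says only that these letters are not within them. Matches of different motifs that overlap were counted for each motif.

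The values of each array are given pair by pair. Psmb5 was at log2 levels of 12.47, 12.55 and 12.62 in the resting and 13.58, 13.77 and 13.86 in the stimulated WT arrays. It was at 12.49, 12.40 and 12.66 in resting and 13.72, 13.57 and 13.75 in stimulated Gli2A Tg cells, and at 12.25, 12.23 and 12.56 and then 13.69, 13.63 and 13.77 in Gli2R Tg cells. Every stimulated array lay above every resting one.

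Psmb8, in its brightest probe set, ran the other way. It was at 13.86, 13.93 and 13.82 in resting and 12.45, 12.56 and 12.53 in stimulated WT arrays. In Gli2A Tg cells it was at 13.93, 13.78 and 13.69 and then 12.48, 11.94 and 12.32, with the lowest value in the array of high actin ratio. In Gli2R Tg cells it was at 13.99, 14.08 and 14.15 and then 12.51, 12.37 and 12.51. No stimulated array reached a resting one.

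Psmb6 was at 12.74, 12.88 and 12.82 in resting and 13.29, 13.37 and 13.50 in stimulated WT arrays. It was at 12.77, 12.71 and 12.61 and then 13.35, 13.40 and 13.47 in Gli2A Tg, and at 12.76, 12.75 and 13.09 and then 13.32, 13.28 and 13.36 in Gli2R Tg cells. The groups did not overlap, and the highest resting array was Gli2R Tg replicate 3. Psmb9 was at 13.41, 13.44 and 13.28 in resting and 12.17, 12.62 and 12.17 in stimulated WT arrays. It was at 13.50, 13.46 and 13.23 and then 12.57, 11.83 and 12.38 in Gli2A Tg, and at 13.59, 13.66 and 13.76 and then 12.40, 12.35 and 12.33 in Gli2R Tg cells. All resting arrays of Psmb9 were above all stimulated ones.

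Psmb7 and Psmb10 both fell. Psmb7 was at 13.85, 13.85 and 14.13 in resting and 13.10, 13.14 and 13.19 in stimulated WT arrays. It was at 13.95, 13.82 and 14.24 and then 12.93, 12.54 and 13.05 in Gli2A Tg, and at 13.84, 13.85 and 14.13 and then 13.19, 13.13 and 13.05 in Gli2R Tg cells. Replicate 3 was the highest resting array in each genotype. Psmb10 was at 12.72, 12.92 and 12.47 in resting and 11.60, 11.51 and 11.56 in stimulated WT arrays. It was at 12.47, 12.33 and 12.06 and then 11.12, 10.49 and 11.17 in Gli2A Tg, and at 12.85, 12.92 and 12.83 and then 11.31, 11.15 and 11.30 in Gli2R Tg cells. Again no group overlapped its counterpart in the other condition.

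**Figure D2:**
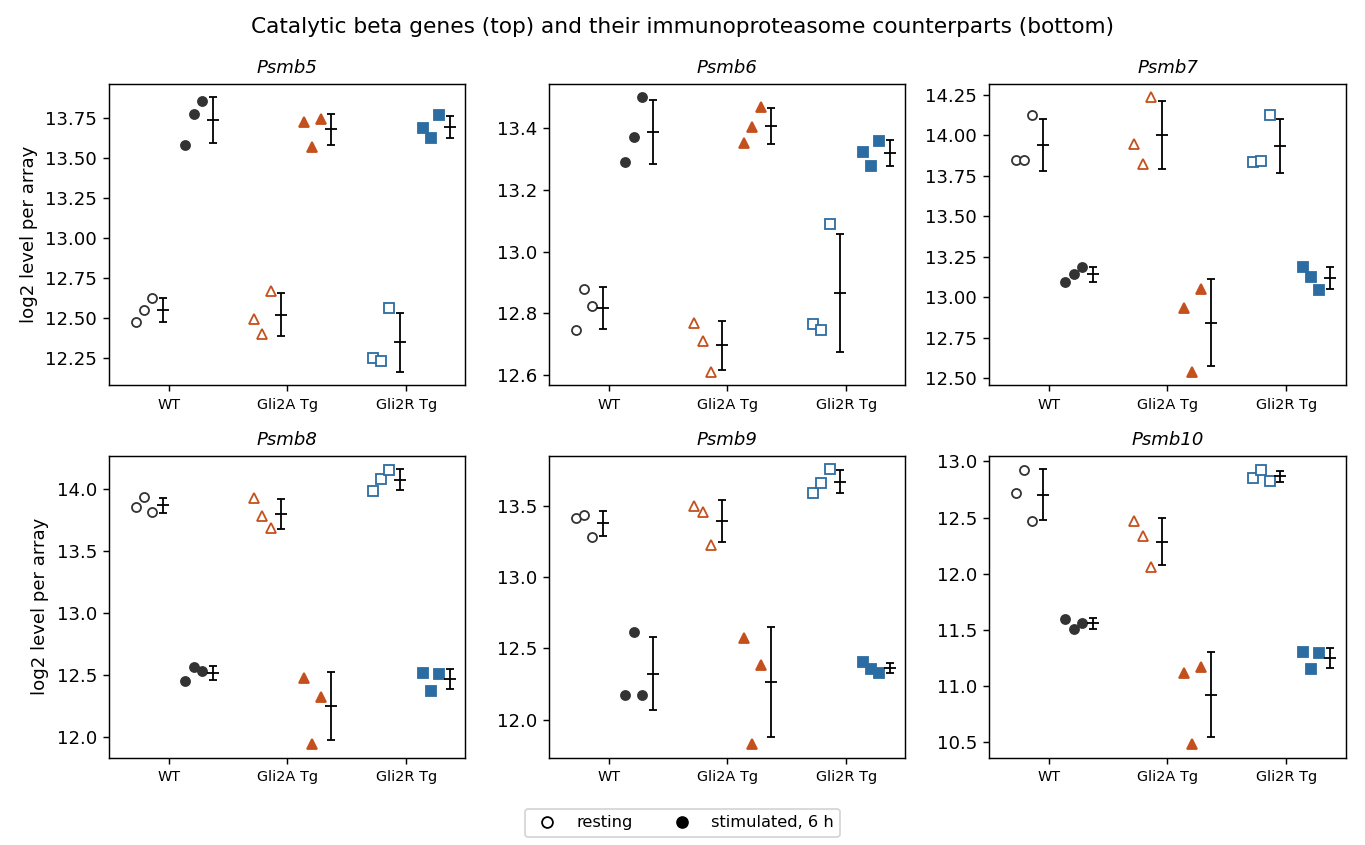
Log2 level in each array of the catalytic beta genes Psmb5, Psmb6 and Psmb7 and of their immunoproteasome counterparts Psmb8, Psmb9 and Psmb10, in resting (open) and stimulated (filled) cells of 3 genotypes, with the mean and SD of the 3 arrays as bars. The axes differ between panels. Psmb5 and Psmb6 lie higher after stimulation, the other 4 genes lie lower, and resting and stimulated arrays do not overlap in any panel.

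The changes of the paired genes were set against each other within each array, without a test. The change of Psmb8 less that of Psmb5 was -2.54 in WT, -2.71 in Gli2A Tg cells and -2.96 in those with Gli2R Tg (each ± 0.12, SE), and the resting and stimulated arrays did not overlap in this difference. Psmb9 less Psmb6 gave -1.63, -1.84 and -1.76 (± 0.18), again without overlap. Psmb10 less Psmb7 gave -0.35, -0.20 and -0.80 (± 0.20), and the arrays overlapped in WT and Gli2A Tg cells. The values of the first pair rest on the brightest probe set of Psmb8, and no order of the pairs is drawn from them. These are differences of changes and say nothing of which subunit is more abundant.

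The ATPase genes rose in the main. Of the 6, 5 were called higher and 0 lower in WT cells (median 0.76), where 19.7% of all genes were higher and 22% lower. Psmc5 (0.04) was called in no genotype. Psmc4 rose by 1.44 ± 0.15 (2.72-fold, adjusted p = 1.42e-06, limma) in WT, by 2.15 (4.44-fold) in Gli2A Tg cells and by 2.14 (4.41-fold) in those with Gli2R Tg. Psmc2 rose by 1.28, 1.45 and 1.56, Psmc1 by 0.97, 0.89 and 1.29 and Psmc6 by 0.56, 0.71 and 0.72. Psmc3 was called higher in WT (0.43) and Gli2R Tg cells (0.47), and its 0.25 in Gli2A Tg cells was not called (adjusted p = 0.102, limma).

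Psmc4 was at 11.67, 11.73 and 11.90 in resting and 13.19, 13.12 and 13.31 in stimulated WT arrays. It was at 11.97, 11.37 and 11.57 and then 13.79, 13.70 and 13.86 in Gli2A Tg, and at 11.58, 11.52 and 11.83 and then 13.80, 13.76 and 13.79 in Gli2R Tg cells. Every stimulated array of a transgenic genotype lay above every stimulated WT array, but neither difference from WT was called, as given below.

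Of the other cap genes 8 of 11 rose and 1 fell in WT cells, where 19.7% of all genes were higher and 22% lower. Their median was 0.76. Psmd7, which pairs with the deubiquitinase Psmd14, rose by 1.25 ± 0.16 (2.38-fold, adjusted p = 1.58e-05, limma), by 1.56 in Gli2A Tg cells and by 1.35 in those with Gli2R Tg. Psmd14 itself, which cuts ubiquitin chains from substrates, rose by 0.99 ± 0.10. The scaffold genes Psmd1 and Psmd2 rose by 0.73 and 0.89, and Psmd3 (0.91), Psmd12 (0.91), Psmd11 (0.76) and Psmd13 (0.39), structural subunits of the lid, rose as well. Psmd4, a ubiquitin receptor (0.21), and Psmd8, a lid subunit (0.06), were not called. The calls of Psmd2 (0.25) and Psmd11 (0.21) were lost with the mean of their probe sets, and that of Psmd13 was lost without any 1 of resting WT replicates 1 and 2 and stimulated WT replicates 2 and 3 (adjusted p 0.0667 to 0.0886, limma).

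Psmd6, another lid subunit, was the only cap subunit gene called lower in WT cells, and that call was not stable. Its brightest probe set gave -0.36 ± 0.13 (adjusted p = 0.0315, limma), a second of like brightness gave 0.90 and was called higher, and their mean was 0.27. With median centring the brightest gave 0.03, and the call was lost without resting WT replicate 2 or 3 or stimulated WT replicate 1 or 2 (adjusted p 0.067 to 0.108, limma). In Gli2A Tg cells the brightest was called lower (-0.43, adjusted p = 0.0121, limma) and the mean of the probe sets was called higher (0.65, adjusted p = 0.000556). In Gli2R Tg cells the brightest was not called (-0.26) and the mean was called higher (0.71, adjusted p = 0.000256, limma).

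None of the 3 chaperone genes for cap assembly was called higher in the fit of all arrays. Psmd10, which encodes gankyrin, fell by 0.75 ± 0.15 in WT (adjusted p = 0.000611, limma), by 0.61 in Gli2A Tg cells and by 0.76 in those with Gli2R Tg. Psmd9 (0.05) was not called. Psmd5 (-0.25) was not called in the fit of all arrays and was called lower, at -0.43, without stimulated WT replicate 3 (adjusted p = 0.0228, limma). In Gli2A Tg cells Psmd5 had the opposite sign, at 0.37 ± 0.15, and was not called (adjusted p = 0.0613, limma). Every stimulated Gli2A Tg array lay above every resting one. In Gli2R Tg cells it was at -0.06 and not called.

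Among the activators, which open the core without the 19S cap, Psme3 had the largest rise of all 42 genes as read from their brightest probe sets. Psme3, which encodes the nuclear activator PA28 gamma, was at 10.40, 10.28 and 10.43 in resting and 12.72, 12.74 and 12.91 in stimulated WT arrays. It was at 10.12, 9.98 and 10.91 and then 12.61, 12.94 and 12.49 in Gli2A Tg, and at 9.63, 10.17 and 10.10 and then 12.61, 12.60 and 12.64 in Gli2R Tg cells. The stimulated arrays were far above the resting ones, and the resting Gli2A Tg array that stood apart was the highest at rest. The rise was 2.42 ± 0.21 in WT (5.35-fold, adjusted p = 2.99e-07, limma), 2.35 in Gli2A Tg cells and 2.65 in those with Gli2R Tg. A second probe set of Psme3 (mean log2 level 10.63, where the brightest had 11.46) gave -0.21 ± 0.22 in WT cells and was not called. With the mean of all its probe sets Psme3 rose by 0.80, 0.88 and 1.11 in WT, Gli2A Tg and Gli2R Tg cells, called in each. That was less than the rise of Psmc4 read in the same way (1.40, 1.79 and 1.83).

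Psme1, which encodes a subunit of the interferon-inducible activator PA28, was at 14.09, 14.01 and 13.89 in resting and 13.84, 13.86 and 13.75 in stimulated WT arrays. It was at 14.06, 14.03 and 13.98 and then 13.76, 13.50 and 13.86 in Gli2A Tg, and at 14.13, 14.14 and 14.05 and then 13.83, 13.88 and 14.05 in Gli2R Tg cells. These small differences were called in Gli2A Tg cells alone (-0.32 ± 0.12, adjusted p = 0.0445, limma), and that call was lost without any 1 of resting Gli2A Tg replicates 1, 2 and 3 and stimulated Gli2A Tg replicates 1 and 2 (adjusted p 0.0571 to 0.189). Psme4, which encodes the activator PA200, was at 10.67, 10.67 and 10.94 in resting and 11.09, 10.87 and 11 in stimulated WT arrays. It was at 10.78, 10.90 and 11.25 and then 11.09, 11.42 and 11.14 in Gli2A Tg, and at 10.76, 10.75 and 10.27 and then 11.08, 11.02 and 11.04 in Gli2R Tg cells. It was called higher in Gli2R Tg cells (0.45 ± 0.16, adjusted p = 0.0373, limma), where the arrays did not overlap, and the call was lost without resting replicate 3 or any 1 of the 3 stimulated arrays (adjusted p 0.069 to 0.177).

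**Figure D3:**
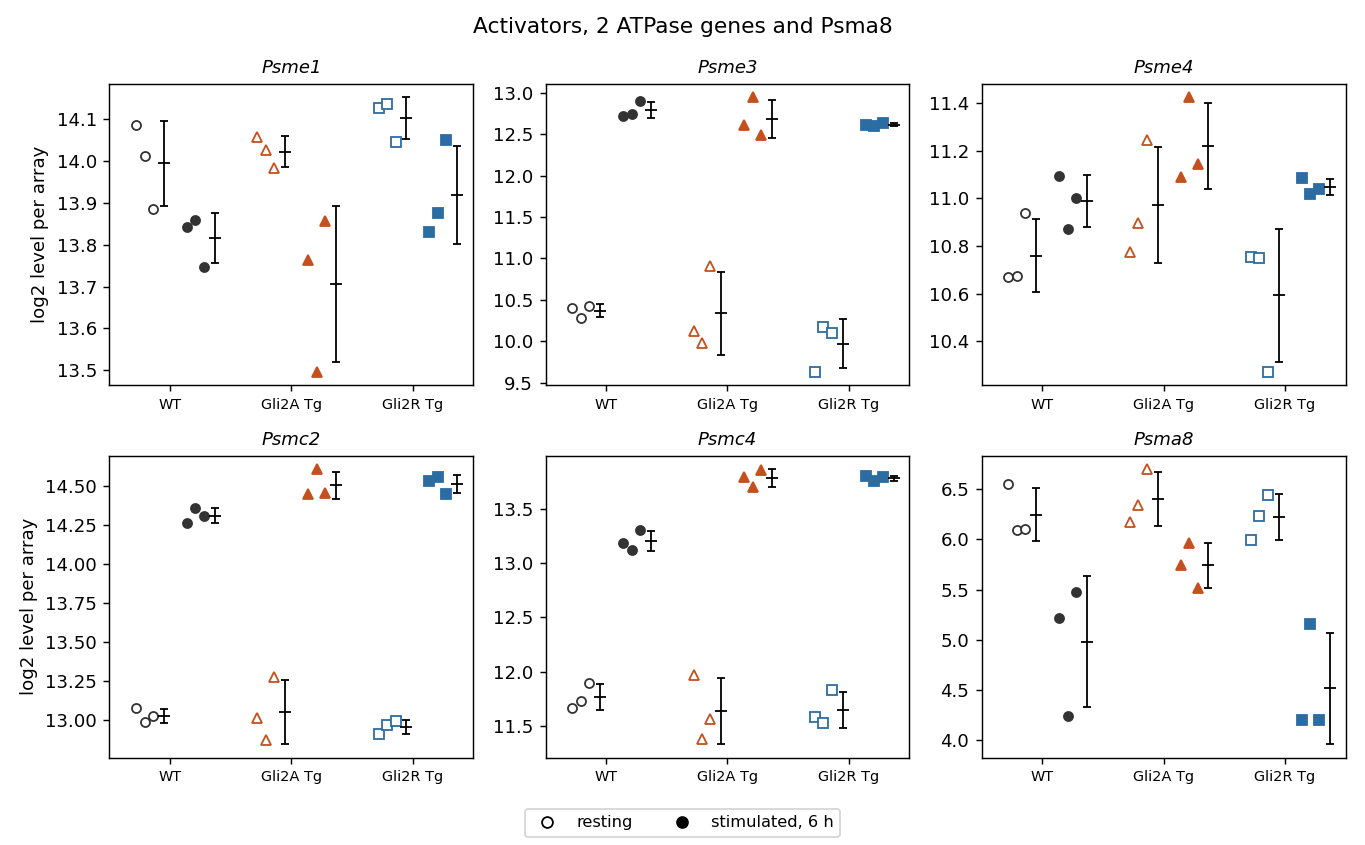
Log2 level in each array of the activator genes Psme1, Psme3 and Psme4, the ATPase genes Psmc2 and Psmc4 and the alpha gene Psma8, in resting (open) and stimulated (filled) cells of 3 genotypes, with the mean and SD of the 3 arrays as bars. The axes differ between panels. Psme3 rises by 2.35 to 2.65 and Psmc4 by 1.44 to 2.15, while Psme1 spans less than 1 log2 unit over all arrays.

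Where a gene had more than 1 probe set, the probe sets did not always move together. A single probe set stood for 20 of the 42 genes, and 20 had another one above the median gene level. In 11 of these 20 all such probe sets had the sign of the brightest in WT cells, among them Psmc4 (1.44 and 1.37), Psmd7 (1.25 and 1.19) and Psma5 (1.04 and 0.91). In 3 genes another probe set was called in the opposite direction. Those were Psmb3, Psmd6 and Psmd4, the last with 0.21 and -0.77. Which part of a transcript each probe set reads was not analysed here.

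**Figure D4:**
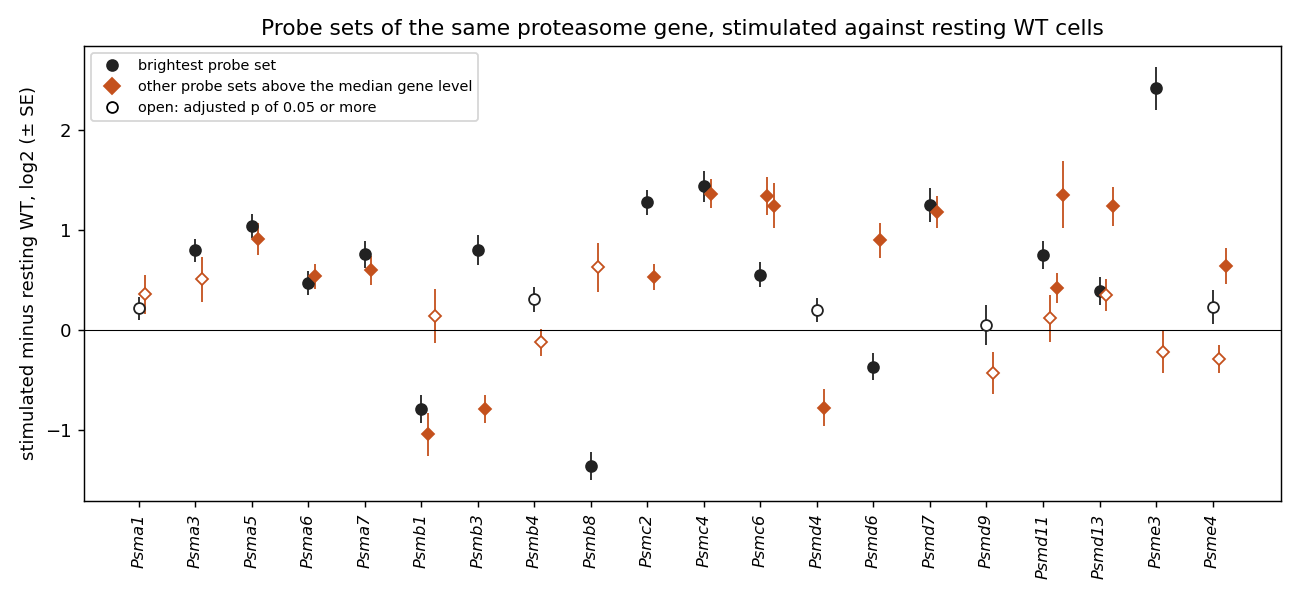
Stimulated minus resting WT cells, as the difference of log2 means with its SE, for each probe set above the median gene level of the 20 proteasome genes that have more than 1 such probe set. Circles are the brightest probe set of a gene, diamonds the others, and filled symbols passed the adjusted p of 0.05 in a fit of all probe sets. Psmb3, Psmd6 and Psmd4 have a called probe set opposite in sign to the brightest, and the brightest of Psme3 stands alone at 2.42.

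Genes that work with the proteasome were counted from lists. Of 16 measured assembly factors, partners and regulators (of 21 listed) 6 rose and 5 fell in WT cells, beside 19.7% higher and 22% lower of all genes and, among the genes above the median level, 35% and 36.4%. Psmg2, a chaperone of the alpha ring, rose by 0.95 ± 0.18, and Zfand2a, a stress-induced partner of the cap, by 0.94 ± 0.15. Ngly1, the N-glycanase that processes Nfe2l1, fell by 1.37 ± 0.15, and Pomp, the chaperone of beta ring assembly, by 0.70 ± 0.16. The rises of Psmg2 (0.36) and Zfand2a (0.40) were not called with the mean of their probe sets, nor the fall of Pomp (-0.31) with median centring. Nfe2l1 and Nfe2l2, the Nrf factors that bind antioxidant elements, were chosen for mention after their values were seen. Nfe2l1 was at -0.48 ± 0.16 and Nfe2l2 at -0.51 ± 0.15, both called lower, and both calls were lost without resting WT replicate 1 (adjusted p = 0.0956 and 0.0595, limma). The call of Nfe2l2 was also lost with median centring, and that of Nfe2l1 without resting WT replicate 2 or stimulated WT replicate 1 or 3.

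Of 11 measured ubiquitin and shuttle genes (of 18 listed) 4 rose and 2 fell in WT cells, beside the same 19.7% and 22% of all genes, and the share that fell was near this background. All of them lay above the median level. Among all genes above that level a like share was called higher and a larger share lower, as given for the list before. Uba6, a ubiquitin-activating enzyme, rose by 2.49 ± 0.19 (5.60-fold, adjusted p = 6.8e-08, limma) and Ubqln4, a shuttle factor, by 1.70 ± 0.15. Ubqln2, another shuttle factor, fell by 1.18 ± 0.18, and Faf1, a ubiquitin-binding cofactor, by 0.55 ± 0.13. With the mean of all probe sets Ubqln4 was at 0.38 and Ubqln2 at 0.03, and neither was called.

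Of 11 genes of MHC class I peptide loading 3 rose and 1 fell in WT cells, a share called that was no larger than the 41.7% of all genes (19.7% higher, 22% lower). Erap1, the peptidase that trims peptides in the endoplasmic reticulum, rose by 1.63 ± 0.14 and the chaperone Calr by 0.50 ± 0.14. Pdia3, a disulfide isomerase, was at -0.88 ± 0.33, and its call was lost without any 1 of the 6 WT arrays (adjusted p 0.0538 to 0.115, limma). Tap1 encodes a chain of the peptide transporter and lies between Psmb9 and Psmb8 in the reference table. It was called higher at 0.32 ± 0.12, beside the falls of both neighbours. This call was lost without any 1 of the 6 WT arrays (adjusted p 0.0572 to 0.126), and the mean of its probe sets was -0.43 and called lower (adjusted p = 0.0294, limma).

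Of 5 measured interferon response factors (of 6 listed) 1 rose and 2 fell in WT cells, where 19.7% of all genes were higher and 22% lower. Irf8 rose by 4.23 ± 0.20, and Irf2 and Irf9 fell by 2.51 ± 0.22 and 0.63 ± 0.14. Irf1, the interferon-induced activator of immunoproteasome genes, was not called (0.13 ± 0.19).

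The last question was whether the Gli2 transgenes moved proteasome genes. In resting Gli2A Tg against WT cells 0 of 42 were called (0.55% of all genes) and 4 had an unadjusted p under 0.05. In stimulated Gli2A Tg against WT cells 0 were called (0.137%) and 8 had such a p. In Gli2R Tg against WT cells 0 were called at rest (0% of all genes, 1 with such a p) and 0 after stimulation (0.044%, 4 with such a p). Gli2A Tg against Gli2R Tg cells gave 0 at rest (2.4%, 6 with such a p) and 0 after stimulation (0.231%, 3 with such a p). The percentages are of genes called by adjusted p. The share of all genes with an unadjusted p under 0.05 is not given here, so those counts are not read as a result. The median difference of the 42 genes was -0.06 to 0.01 in these 6 comparisons.

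The genes nearest to a call were few. Psma2, an alpha ring gene, was at 13.22, 13.33 and 13.18 in resting Gli2A Tg and 13.59, 13.71 and 13.81 in resting Gli2R Tg cells, a difference of -0.46 ± 0.12 (adjusted p = 0.0525, limma) without overlap. Psmb10 was lower in the same comparison by 0.58 ± 0.18 (adjusted p = 0.0984) and lower in stimulated Gli2A Tg than WT cells by 0.63 ± 0.18 (adjusted p = 0.162). The myeloid marker mean was 11.85 to 11.89 in resting Gli2A Tg and 10.62 to 11.05 in resting Gli2R Tg arrays. The erythroid marker mean was 10.22 to 11.47 and 7.88 to 8.99 in the same arrays, and 10.08 to 10.62 in resting WT arrays. The part of either signal in these differences was not tested. The fit with the myeloid covariate, in which 0 genes of the set were called, cannot show the myeloid part, since 0 were called without the covariate as well. Psmc4 was higher by 0.58 ± 0.15 in stimulated Gli2A Tg and by the same amount in stimulated Gli2R Tg than in WT cells (adjusted p = 0.129 and 0.225, limma), with the WT arrays shared by both comparisons. Psmd7 was at 9.92, 10.02 and 9.83 in resting Gli2A Tg and 10.55, 10.43 and 10.65 in resting WT arrays, a difference of -0.62 ± 0.16 (adjusted p = 0.142) without overlap.

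Psma2, Psmb10, Psmc4, Psmd7 and Psma5 passed the threshold in one or another of these comparisons under other settings of the same test. With limma's trend and robust options, Psmd7 gave an adjusted p of 0.0482 in resting and Psmc4, Psmb10 and Psma5 gave 0.0277, 0.0483 and 0.0178 in stimulated Gli2A Tg against WT cells. In resting Gli2A Tg against Gli2R Tg cells, Psma2 (0.00416) and Psmb10 (0.0305) passed. Psma5 also passed in stimulated Gli2R Tg against WT cells (0.0478), where the mean of its probe sets gave 0.03 in place of -0.42. No proteasome gene differed between genotypes under all settings.

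The stimulation effect itself was also compared between genotypes. None of the 42 genes was called for Gli2A Tg against WT (0.011% of all genes), Gli2R Tg against WT (0%) or Gli2A Tg against Gli2R Tg (0.11%), and 3, 4 and 4 had an unadjusted p under 0.05. For the unadjusted p the share of all genes is again not given, and nothing is read from these counts. The rise of Psmc4 was larger than in WT by 0.71 ± 0.21 in Gli2A Tg (adjusted p = 0.26, limma) and by 0.70 ± 0.21 in Gli2R Tg cells (adjusted p = 0.334). Of the lists of companion genes, Irf8 was called between genotypes, higher in resting Gli2A Tg than in WT (1.01 ± 0.20, adjusted p = 0.0344) and Gli2R Tg cells (1.02 ± 0.20, adjusted p = 0.0144). Zfand2a was called lower in resting Gli2A Tg than Gli2R Tg cells (-0.61 ± 0.15, adjusted p = 0.0421). Each of these 3 calls was lost without resting Gli2A Tg replicate 3, at adjusted p = 0.127, 0.0737 and 0.122, limma. Irf8 against WT was also lost without resting WT replicate 2 or 3 or Gli2A Tg replicate 2, Irf8 against Gli2R Tg without Gli2R Tg replicate 2, and Zfand2a without Gli2A Tg replicate 2 or any 1 of the Gli2R Tg arrays. The myeloid marker mean was 11.85 to 11.89 in resting Gli2A Tg, 11.12 to 11.76 in resting WT and 10.62 to 11.05 in resting Gli2R Tg arrays. The part of other spleen cells in the Irf8 differences was not tested.

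**Figure D5:**
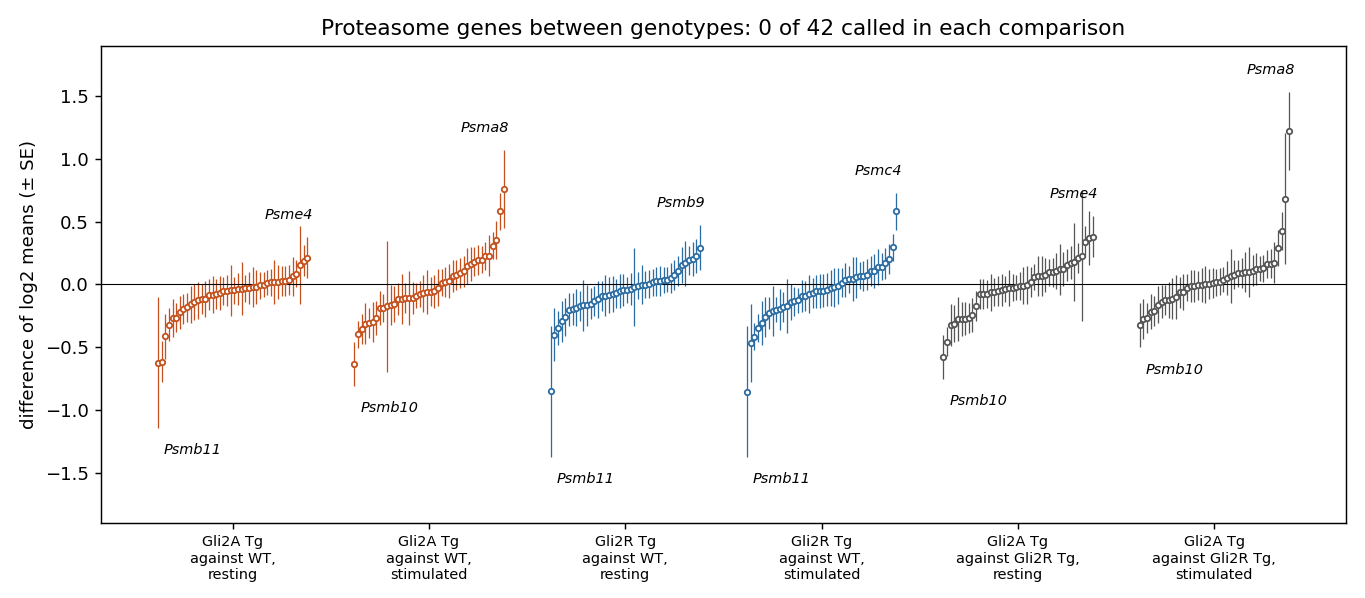
Difference of log2 means between genotypes with its SE for the 42 proteasome genes, ordered by size within each of 6 comparisons of 3 with 3 arrays, the lowest and highest gene being named. None passed the adjusted p of 0.05. Most lie close to 0, and the widest bars belong to the dim genes Psmb11 and Psma8.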

How the data were processed

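Expression was measured on 18 arrays in 6 groups of 3. The authors deposited linear intensity values for 45101 probe sets per array, each array with a 2% trimmed mean of 500 as computed from the values. The submitters' processing notes name the affy package, without a version. The median intensity of an array was 55.5 to 76.3. Precision is limited by having 3 arrays per group. Of the probe sets, 34945 had 1 symbol in the platform annotation, 932 several, 9160 none and 64 were controls. Entrez numbers matched the reference gene table (GRCm38.p6) for 34741 of these and 0 were renamed.

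Values were log2-transformed after adding 16 and quantile normalized. Group means of all 18 arrays were fitted with limma 3.58.1 (lmFit, eBayes) in R 4.3.3, and 13 comparisons were taken from the fit, which was tested on simulated data. Whether replicates came from separate mice is not given, so p-values measure only the spread between these samples.

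Proteasome genes and gene lists were chosen with earlier results of these data known. All 42 genes are named, with per-array values for the immunoproteasome genes and their counterparts, the activators and the 2 largest rises and falls in WT cells. From each other list up to 4 called genes with the largest WT differences are named, and every called gene between genotypes. Alternatives were other scalings, pseudocounts of 1 and 64, a filter on dim genes, other probe set rules, a trend and robust eBayes, weights per array, the replicate block, the compared groups alone and each array left out. The fits without both arrays that stand apart and with a myeloid covariate were added after the data were seen. Protein sequences were not used here.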

Additional observations from a re-analysis of the deposited data

How the results depend on the processing

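Of the stimulation calls, 23 of 31 in WT, 22 of 32 in Gli2A Tg and 24 of 32 in Gli2R Tg cells kept their direction and passed the threshold in each of 17 other settings or array sets, leaving aside the fits chosen after the data were seen. Leaving out 1 array gave 22 to 23 genes higher and 7 to 9 lower in WT, 23 to 25 and 6 to 8 in Gli2A Tg, and 22 to 23 and 7 in Gli2R Tg cells. Other settings apart from the myeloid covariate gave 19 to 29, 21 to 29 and 21 to 26 higher and 6 to 8, 5 to 9 and 7 lower. The 5 lower in Gli2A Tg cells came with median centring and with the deposited scaling. Median centring moved the median of all genes by 0.13 in WT and 0.11 in Gli2A Tg cells and the median of the proteasome genes to 0.82 and 0.77. The calls among all 18193 genes moved as well. In WT cells they were 7584 (3576 higher) in the main fit, 7904 (4046 higher) with median centring and 7864 (3099 higher) with the deposited scaling. For the fits without 1 array and most other settings the share of all genes is not given, so the ranges show only how the counts moved. The myeloid covariate left 0 higher and 0 lower in each genotype and in their mean. Under it Psma8 (0.29) and Psmc3 (-0.064) in WT, Psmb4 (-0.16) in Gli2A Tg, and Psma4 (-0.11), Psmb4 (-0.25), Psmb6 (-0.037) and Psmc3 (-0.003) in Gli2R Tg cells turned sign, as did Tap1 (-0.061) and Nfe2l2 (0.89) in WT cells, none of them called. Its standard errors were larger, with Psmb8 at -1.61 ± 0.67 and Psme3 at 2.84 ± 1.05 in WT cells. The mean of all probe sets turned Psmd6 (0.27, 0.65 and 0.71), Ubqln2 (0.029) and Tap1 (-0.43), and median centring turned Psmd6 in WT cells (0.030). With that mean Psmd6 was called higher in Gli2A Tg and Gli2R Tg cells and not called in WT cells. The cause was not tested. Between genotypes, restricting the fit to genes above the median level gave 1 gene lower in resting and 1 higher and 1 lower in stimulated Gli2A Tg against WT cells, and 2 lower in resting Gli2A Tg against Gli2R Tg cells. The trend and robust options gave 1, 1 and 2, and 2 in the same order and 1 lower in stimulated Gli2R Tg against WT cells, and a pseudocount of 64 gave 2 lower in resting Gli2A Tg against Gli2R Tg cells.

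With the replicate number as a block, 24 genes were higher and 8 lower in WT, 24 and 7 in Gli2A Tg and 23 and 7 in Gli2R Tg cells. The share of all genes in this fit is not given either. Same-numbered arrays of different groups correlated at -0.058 to 0.10 over 45 pairs (median 0.020, and -0.0093 over 90 pairs of unlike number), so not every pair was over 0.1 and the numbers were not taken to pair the arrays. That 12 of 18 arrays were closest to one of their own number is a hint of a pairing from the data, not from the design. Signal limits Psma8 and Psmb11, and 40 of the 42 genes were above the median level.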

Other observations

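The probe set shared by Psme2, the partner of Psme1 in the PA28 activator, and Psme2b was read by itself, outside the fit of genes. Its log2 levels were 13.17, 13.33 and 13.20 in resting and 14.59, 14.57 and 14.67 in stimulated WT arrays. It was at 13.27, 13.19 and 13.16 and then 14.46, 14.07 and 14.35 in Gli2A Tg, and at 13.46, 13.48 and 13.47 and then 14.55, 14.46 and 14.46 in Gli2R Tg cells. Stimulated less resting means were 1.38, 1.09 and 1.02 in WT, Gli2A Tg and Gli2R Tg cells, and no stimulated array overlapped a resting one. The probe set does not separate Psme2 from Psme2b, and no test was made.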
